A study of Mus musculus with 6 samples.

Results

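Ier2, Btg2, Klf10, Gadd45b, Midn, Sertad1 and Cdkn1a are early response genes, several of which are tied to growth arrest, and they are described here in the visual cortex of adult mice after the loss of an eye. These 7 genes, out of 8251 genes named by a single symbol on the array, were taken by name from the platform annotation, which gave them 10 of the 12488 probe sets. They were proposed because their signals in deprived and non-deprived cortex were already known, so that comparison is given for them as a description. The deprived group is 3 arrays of visual cortex on the side opposite the removed eye, and the non-deprived group is 3 arrays of visual cortex on the same side as the removed eye. All were from wild-type C57Bl6 mice, of which the labels name 4, enucleated on 1 side at postnatal day 100 and killed 4 days later, so the non-deprived cortex also came from an enucleated animal. The design text calls the samples pooled. The labels do not say how many mice entered a pool or whether the arrays of a group held separate pools, and the p-values therefore rest on a spread between arrays that may be technical alone.

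Early response genes are transcribed within minutes of a stimulus, in neurons above all by calcium and MAP kinase signalling, without new protein synthesis, and their mRNAs are short-lived. In the visual cortex such genes follow visual drive. Several of them were first described in dividing cells, where their proteins slow the cell cycle or respond to stress, although adult cortical neurons do not divide. In a tissue sample, fewer cells that express a gene and less RNA per cell cannot be told apart.

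All 7 genes had a lower mean signal in deprived than in non-deprived arrays, and in 6 of them every deprived array read below every non-deprived array. Such a full separation downward was found for 4.59% of the 7453 probe sets tested, and a lower mean for 47.8%. The log2 change, deprived minus non-deprived on log2(signal + 16), ranged from -1.07 for Ier2 to -0.50 for Klf10, with a median of -0.71 over the 7 genes, beside a median of 0.01 over all probe sets tested. In the limma fit over the whole table, 1 of the 7 genes, Ier2, fell past an adjusted p of 0.05, the threshold that 0.161% of all probe sets passed as lower. Nothing is read from these counts, since the genes were picked from this comparison. All values are MAS5 signals, an arbitrary brightness unit, so levels are compared between arrays and not between genes. The pseudocount of 16 understates the log2 changes of dim probe sets, while the percentages given are ratios of mean signals without it.

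**Figure D1:**
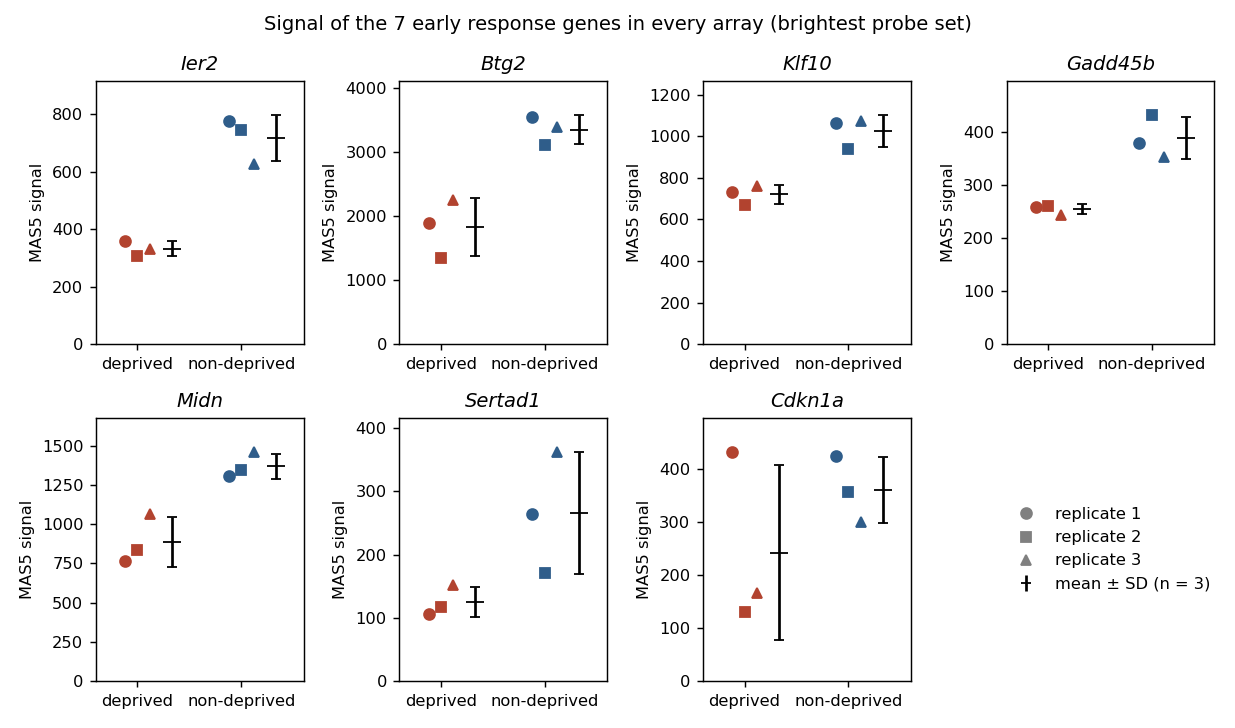
MAS5 signal (linear axis from 0) of the brightest probe set of each of the 7 genes in 3 deprived and 3 non-deprived arrays, with replicates as symbols and mean ± SD beside them. The groups stand apart in each panel except that of Cdkn1a, where deprived replicate 1 read 432.1, the highest of the 6 arrays.

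Ier2 encodes a short-lived nuclear protein that acts on transcription and is induced by growth factors and neuronal activity. Its signal was 359.2, 308.1 and 332.3 in deprived replicates 1 to 3, against 778.6, 746.5 and 628.3 in non-deprived replicates 1 to 3. The 3 deprived arrays lay close together and well below the lowest non-deprived array. The deprived mean of 333 ± 25.6 was 46.4% of the non-deprived mean of 718 ± 79.1 (SD, n = 3 arrays each; log2 change -1.07, SE 0.15, limma adjusted p = 0.031). Ier2 lost this call whichever array was left out, with limma adjusted p from 0.059 to 0.181 and log2 changes from -1.16 to -1.01. With all 6 arrays kept, it also lost the call with the replicate number as a block (limma adjusted p = 0.061), with no filter on dim probe sets (0.053) and without the intensity trend (0.074), at a log2 change of -1.07 in each.

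Klf10 is a zinc-finger transcription factor first found as an early gene of TGF-beta and known to repress growth. Its brightest probe set read 730.6, 668.9 and 761.2 in deprived arrays, against 1062.1, 936.6 and 1074.5 in non-deprived arrays. Its mean in deprived arrays, 720 ± 47.0, was 70.3% of the non-deprived mean of 1024 ± 76.3 (SD, n = 3 each; log2 change -0.50, SE 0.12), the smallest difference among the 7 genes, although the groups did not overlap. A second probe set, whose _g suffix marks probes that may be shared between closely related transcripts, read 344.7, 384.7 and 408.5 in deprived arrays, against 460.3, 482.2 and 470.9 in non-deprived arrays. The groups did not overlap there either, and the log2 change was -0.30 (SE 0.15).

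Btg2 is an antiproliferative protein of the BTG and TOB family, which binds the CCR4-NOT complex and promotes the shortening of mRNA poly(A) tails. It read 1897.1, 1346.8 and 2243.9 in deprived replicates 1 to 3, against 3553.4, 3112.8 and 3385.5 in non-deprived replicates 1 to 3. The deprived arrays were spread more widely than the non-deprived arrays, with replicate 2 lowest, and all lay below the non-deprived arrays. The deprived mean of 1829 ± 452 was 54.6% of the non-deprived mean of 3351 ± 222 (SD, n = 3 each; log2 change -0.90, SE 0.16). Leaving out deprived replicate 2 gave a log2 change of -0.69, and leaving out deprived replicate 3 gave -1.06.

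Midn encodes midnolin, a nuclear protein that brings the protein products of other early response genes to the proteasome for destruction without ubiquitin. Its signal was 764.7, 833.1 and 1065.9 in deprived arrays, against 1305.5, 1346.2 and 1460.8 in non-deprived arrays. Deprived replicate 3 came nearest to the non-deprived arrays without reaching them. On average the deprived arrays read 888 ± 158, which was 64.8% of the non-deprived mean of 1371 ± 80.5 (SD, n = 3 each; log2 change -0.63, SE 0.14).

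Gadd45b belongs to a family of small acidic stress proteins that bind and activate the kinase MAP3K4 and that have been linked, in mouse neurons, to activity-driven DNA demethylation. Its brightest probe set read 258.2, 260.8 and 243.7 in deprived arrays, against 379.0, 431.3 and 353.4 in non-deprived arrays. The 3 deprived arrays differed from each other by 6.73% of their mean, the narrowest deprived range among the 7 genes. The deprived mean of 254 ± 9.22 was 65.5% of the non-deprived mean of 388 ± 39.7 (SD, n = 3 each; log2 change -0.58, SE 0.17). A second Gadd45b probe set carries an _f suffix, which marks a design that can pick up related transcripts. It read 132.9, 155.0 and 143.1 in deprived arrays, against 319.0, 200.3 and 504.8 in non-deprived arrays, with a log2 change of -1.07 (SE 0.32). Both probe sets thus separated the groups, but the second put the size of the difference higher, and its non-deprived arrays were widely spread. Averaging both moved the log2 change of Gadd45b to -0.82.

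Sertad1 encodes a nuclear protein that binds the cyclin-dependent kinase CDK4 and acts as a co-activator for E2F factors. It was a dim probe set, with 106.1, 117.5 and 151.1 in deprived replicates 1 to 3 and 264.2, 170.3 and 362.1 in non-deprived replicates 1 to 3. The highest deprived array lay just under the lowest non-deprived array, and the non-deprived arrays were spread over 72.2% of their mean. The deprived mean of 125 ± 23.4 was 47.0% of the non-deprived mean of 266 ± 95.9 (SD, n = 3 each; log2 change -0.95, SE 0.32). The deprived level is below 134.7, the lowest mean signal the filter let through, and without detection calls it is not shown to be above background. The log2 change was -0.71 once non-deprived replicate 3, which had the highest Sertad1 signal, was left out, and -1.22 without non-deprived replicate 2, which had the lowest of its group.

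Cdkn1a encodes the cyclin-dependent kinase inhibitor p21, a classical target of p53. It was the exception in pattern. Its brightest probe set read 432.1, 129.9 and 165.3 in deprived replicates 1 to 3, against 424.7, 356.8 and 300.7 in non-deprived replicates 1 to 3. Deprived replicate 1 read highest of all 6 arrays, and the other 2 deprived arrays read below every non-deprived array, so the groups overlapped. Deprived arrays averaged 242 ± 165, which was 67.2% of the non-deprived mean of 361 ± 62.1 (SD, n = 3 each; log2 change -0.71, SE 0.37). The log2 change was -1.20 without deprived replicate 1 and -0.39 without deprived replicate 2, so its size rested on single arrays.

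The second Cdkn1a probe set had a mean of 110.4 over the 6 arrays, under the filter, and was not tested. It read 40.6, 83.9 and 111.9 in deprived arrays, against 254.1, 67.9 and 104.3 in non-deprived arrays, and the groups overlapped. Deprived replicate 1 read lowest of the 6 arrays on this probe set, but highest on the brighter one. The signals of the dimmer probe set are not shown to be above background. Whether deprived replicate 1 was high in Cdkn1a therefore cannot be told.

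**Figure D2:**
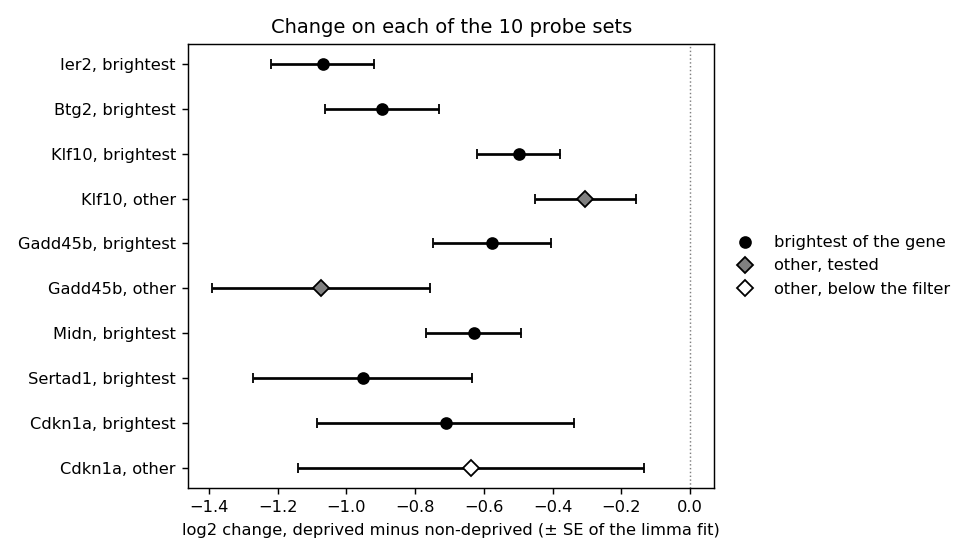
Log2 change, deprived minus non-deprived, of the 10 probe sets of the 7 genes, with bars of ± 1 SE from the limma fit (for the probe set below the filter, from the fit with no filter). Every point lies below 0, and the 2 probe sets of Gadd45b differ most, at -0.58 and -1.07.

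The 7 genes did not share one order among replicates. Relative to each gene's non-deprived mean, the median of the 7 genes on log2(signal + 16) was -0.81, -1.02 and -0.63 in deprived replicates 1, 2 and 3, and 0.05, -0.02 and 0.02 in non-deprived replicates 1, 2 and 3. Among the deprived arrays, replicate 2 was lowest for 4 genes (Ier2, Btg2, Klf10 and Cdkn1a), replicate 1 for 2 (Midn and Sertad1) and replicate 3 for 1 (Gadd45b). Deprived replicate 3 was the highest of its group for 4 genes. Among the non-deprived arrays, replicates 1 and 3 were each the highest for 3 genes and replicate 2 for 1. Leaving out any single array kept the median over the 7 genes between -0.86 and -0.59.

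**Figure D3:**
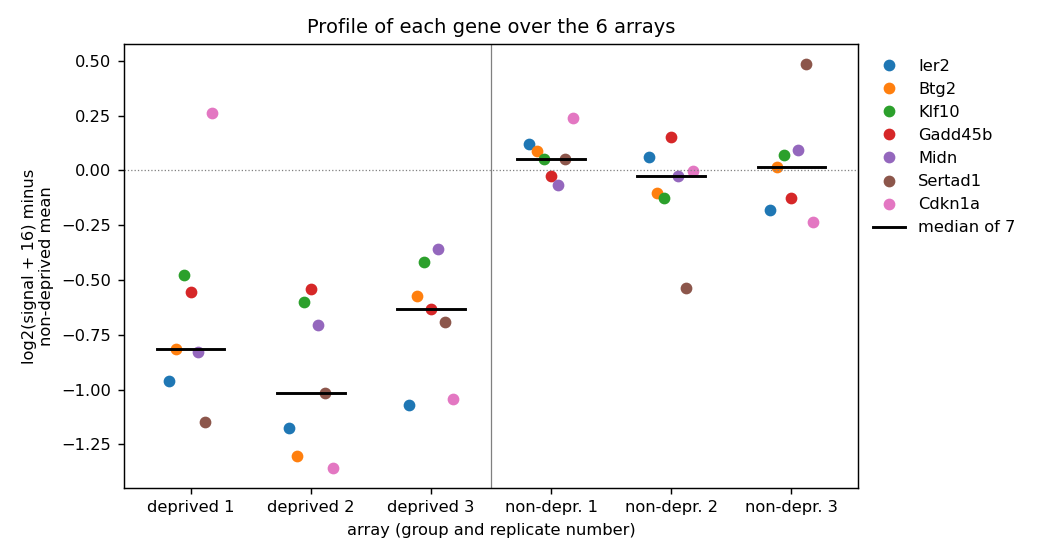
Log2(signal + 16) of each gene minus its mean over the non-deprived arrays, for each of the 6 arrays, with the median of the 7 genes as a bar. The bars lie at -0.81, -1.02 and -0.63 in the deprived arrays and near 0 in the non-deprived arrays. Cdkn1a in deprived replicate 1 (0.26) and Sertad1 in non-deprived replicates 2 (-0.54) and 3 (0.48) leave the pattern.

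The probe sets of other genes nearest to the median profile were found by the root mean square difference over the 6 arrays on the same log2 scale, among 6707 tested probe sets with a single gene symbol. They were those of St8sia5 (0.17), Fosb (0.18), R3hdm1 (0.18), Tapbp (0.19) and Inca1 (0.19), against a median difference of 0.63 over all candidates. The 7 genes themselves make up the median profile, so their nearness to it is partly built in. Their difference from it was 0.12 for Btg2, 0.18 for Midn and 0.51 for Cdkn1a. It was 0.22 for Ier2, 0.24 for Klf10 and Gadd45b, and 0.32 for Sertad1. All but Btg2 and Midn thus lay farther from it than every probe set just named. Ier2 was nearest to Dusp6, at a difference of 0.07. Dusp6 read 837.4, 849.0 and 872.6 in deprived arrays, against 2049.6, 1914.0 and 1560.0 in non-deprived arrays, and like Ier2 it had its lowest non-deprived value in replicate 3. Klf10 was nearest to Npy (0.08), Gadd45b to a dim probe set of Bag6 (0.07), Midn to an _f probe set of Rgs10 (0.10), Sertad1 to a probe set of Cdk5rap3 (0.16), Cdkn1a to a probe set of Pold1 (0.19) and Btg2 to Inca1 (0.21). These likenesses describe 6 arrays in 2 groups, and any probe set lower in all deprived arrays by a like amount comes near.

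The Fos and Jun subunits and the Egr and Nab genes, early response transcription factors and their co-repressors, are set beside the 7 genes for size. Of 6 tested Fos and Jun genes, 2 fell past the threshold, and the median log2 change was -0.47. They were Fos (703 in deprived and 2946 in non-deprived arrays on average, log2 change -2.05, SE 0.12) and Junb on an _r probe set (981 and 2641, log2 change -1.43, SE 0.14). A second tested Junb probe set also passed, with a smaller log2 change of -1.13 (SE 0.10). Of 4 tested Egr and Nab genes, Egr2 (440 and 1335, log2 change -1.57, SE 0.14) and Egr1 (2846 and 6248, log2 change -1.13, SE 0.09) fell past the threshold, and the median was -0.79. Dimmer probe sets below the filter had smaller log2 changes, -0.64 (SE 0.36) for Fos and -0.49 (SE 0.56) for Egr1. Their groups overlapped, and they were not tested. The difference between the Fos, Jun, Egr and Nab genes and the 7 genes was not tested.

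The 250 bases before the annotated start of transcription were available from RefSeq (build GRCm38.p6) for 5 of the 7 genes (all but Ier2 and Klf10), at 7 starts. Those of Btg2 and Gadd45b are shown because of the matches they hold. Btg2 holds a cAMP response element (CRE, the binding site of CREB), a site known from early response promoters. Gadd45b holds a TATA box, which 12.4% of all windows searched also held. Both windows are written 5′ to 3′ on the gene's strand, with capitals for CRE, TATA box (TATAAA) and CCAAT box matches.
Btg2, chr1:134079156-134079405, minus strand: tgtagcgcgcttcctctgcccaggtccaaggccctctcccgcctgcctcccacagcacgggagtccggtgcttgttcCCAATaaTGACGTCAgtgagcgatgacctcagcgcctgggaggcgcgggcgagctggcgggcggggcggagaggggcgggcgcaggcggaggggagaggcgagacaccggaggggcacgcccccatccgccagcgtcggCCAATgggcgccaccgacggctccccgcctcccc
Gadd45b, chr10:80929841-80930090, plus strand: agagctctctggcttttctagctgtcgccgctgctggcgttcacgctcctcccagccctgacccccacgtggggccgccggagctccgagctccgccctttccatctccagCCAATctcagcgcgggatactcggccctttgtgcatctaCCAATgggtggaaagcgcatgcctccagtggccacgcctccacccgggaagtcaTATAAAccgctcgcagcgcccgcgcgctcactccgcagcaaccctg
In Btg2 the CRE, TGACGTCA, lay 166 to 159 bases before the start, just downstream of a CCAAT box, and a second CCAAT box lay 34 to 30 bases before the start. In Gadd45b the TATAAA match lay 46 to 41 bases before the start, with CCAAT boxes at 139 to 135 and 100 to 96 bases before it.

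Searched on both strands in all 32851 windows of this length, TGACGTCA was found in 1.55%, its half-site TGACG (which every CRE contains) in 17.8%, TATAAA in 12.4%, CCAAT in 33.9% and the GC box GGGCGG in 32.7%. Of the 7 windows of these genes, 1 held a CRE (Btg2), 2 the half-site (Btg2 and a start of Midn), 1 TATAAA (Gadd45b), 3 CCAAT (Btg2, Gadd45b and a start of Midn) and 6 a GC box, belonging to 5 genes. The CArG box bound by serum response factor (in 1.47% of all windows) and the AP-1 site TGANTCA (in 6.75%) were found in 0 of the 7. G and C made up 54.0% (a start of Cdkn1a) to 73.2% (Btg2) of these windows, beside a median of 52.4% over all windows. A match describes these letters only, and no single motif among those searched was common to all 7 windows.

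Midn and Gadd45b both lie on mouse chromosome 10, with 43 protein-coding genes between them in the RefSeq annotation. Of these, 20 had a tested probe set, 11 with a lower and 9 with a higher mean in deprived arrays, and the median log2 change was -0.04. None passed the threshold over the whole table, and their log2 changes ran from -0.56 to 0.80. The other 5 genes lie on chromosomes 1 (Btg2), 7 (Sertad1), 8 (Ier2), 15 (Klf10) and 17 (Cdkn1a).

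The families and pathways to which the 7 genes belong were examined through 12 lists holding 158 other genes, of which 85 had a tested probe set. None of the 85 passed the limma threshold, which 0.174% of all probe sets passed in either direction (smallest adjusted p = 0.35). Without adjustment, 3 were lower and 2 higher at p under 0.05 (2.42% and 2.67% of all probe sets), and eBayes without the intensity trend also called 0. The median log2 change was 0.01, with 40 lower and 45 higher means, and 1 of the 85 (Mcm7) had a log2 change at or below that of Klf10, which 2.90% of all probe sets did. The groups were fully apart downward for 4 of the 85 and upward for 8, beside 4.59% and 5.5% of all probe sets.

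Close relatives of the 7 genes did not pass the test, and their values were as follows. Gadd45a read 202.0, 162.3 and 186.7 in deprived arrays, against 253.6, 232.4 and 223.8 in non-deprived arrays (log2 change -0.34, 95% interval -0.84 to 0.16). Its groups did not overlap, and those of Gadd45g did (log2 change -0.37, 95% interval -0.84 to 0.11). The intervals of both relatives hold 0 and also the -0.58 of Gadd45b, so neither a difference like that of Gadd45b nor its absence was shown for them. In the BTG and TOB family, Btg1 had a log2 change of -0.28 (95% interval -0.79 to 0.23) and Tob1, which also binds the deadenylase complex, 0.09 (95% interval -0.40 to 0.58).

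Ier3, which shares the early response name with Ier2, read 359.8, 446.0 and 452.8 in deprived arrays, against 334.0, 297.2 and 327.1 in non-deprived arrays. Every deprived array was above every non-deprived array, as for 5.5% of all probe sets and opposite to Ier2, but the log2 change of 0.37 (SE 0.17) did not pass. Cdca4, the measured relative of Sertad1, had a log2 change of 0.26 (SE 0.16). It too had every deprived array above every non-deprived array, opposite to Sertad1, without passing. Among 9 other Krueppel-like factors tested of 16 listed, 7 had lower means, the median was -0.04 and none passed. Klf7 had -0.37 (SE 0.16) and Klf1, a red blood cell factor, 0.47 (SE 0.47). Klf9, named after its values were seen because it had the smallest adjusted p of the 85 genes, read 2887.0, 3207.9 and 3289.0 in deprived arrays, against 3963.5, 4078.8 and 4032.4 in non-deprived arrays (log2 change -0.36, SE 0.08). The groups did not overlap on that _s probe set, while a dimmer tested Klf9 probe set had -0.01 (SE 0.17).

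Of the tested genes of the cell cycle itself, on which Cdkn1a and Sertad1 act, none passed. For CDK inhibitors and retinoblastoma family genes (5 tested of 9 listed), the median log2 change was -0.11. Cdkn1c, which encodes p57, a sister inhibitor of p21, read 243.9, 386.9 and 311.6 in deprived arrays, against 200.6, 196.7 and 242.6 in non-deprived arrays. These groups did not overlap and lay opposite to the mean difference of Cdkn1a, without passing (log2 change 0.51, SE 0.23), and Cdkn2a had 0.22 (SE 0.37). Cyclins, CDKs and S-phase genes had a median of -0.03 over 17 tested of 25 listed. The replication helicase genes Mcm7 and Mcm2 had -0.95 (SE 0.37) and 0.93 (SE 0.40). These were opposite in sign though their products act in a single complex, and both were dim.

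Genes of the p53 pathway, the one best known to induce Cdkn1a, had a median of -0.03 (10 tested of 26 listed, 5 lower and 5 higher). Trp53, the gene of p53 itself, was not among those tested. Rrm2b, a ribonucleotide reductase subunit, had 0.31 (SE 0.16) on an _f probe set and Ccng1, a cyclin induced by p53, 0.28 (SE 0.22). The CCR4-NOT and poly(A) deadenylation genes, partners of Btg2, had a median of 0.04 over 13 tested of 19 listed. Pan2, a poly(A) nuclease subunit, had 0.34 (SE 0.27) and Noct, a rhythmically expressed gene, 0.29 (SE 0.13) on an _f probe set. A dimmer tested Noct probe set went the other way, at -0.30 (SE 0.12), with every deprived array below every non-deprived array, so no direction is given for Noct.

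Kinases of the p38 and JNK pathways, in which MAP3K4 acts, had a median of 0.07 over 11 tested of 16 listed. The list was not limited to kinases under MAP3K4. The kinase gene Map3k7 had 0.53 (SE 0.27) and Map2k3 0.27 (SE 0.14), with 0.06 (SE 0.15) on a second tested Map2k3 probe set. TGF-beta and SMAD signalling genes, upstream of Klf10 in other tissues, had a median of 0.09 over 10 tested of 20 listed. Tgfb1, Tgfbr1, Tgfbr2 and Smad3 were not among those tested. The activin receptor genes Acvr2a and Acvr1b had 0.37 (SE 0.17) and -0.35 (SE 0.23), and a dimmer Acvr2a probe set had -0.54 (SE 0.29). DNA methylation and demethylation genes had a median of 0.18 over 4 tested of 11 listed. Mbd4 had 0.23 (SE 0.26) and Ercc5 0.18 (SE 0.25), while Tet1, Tet2, Tet3 and Tdg were not tested.

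**Figure D4:**
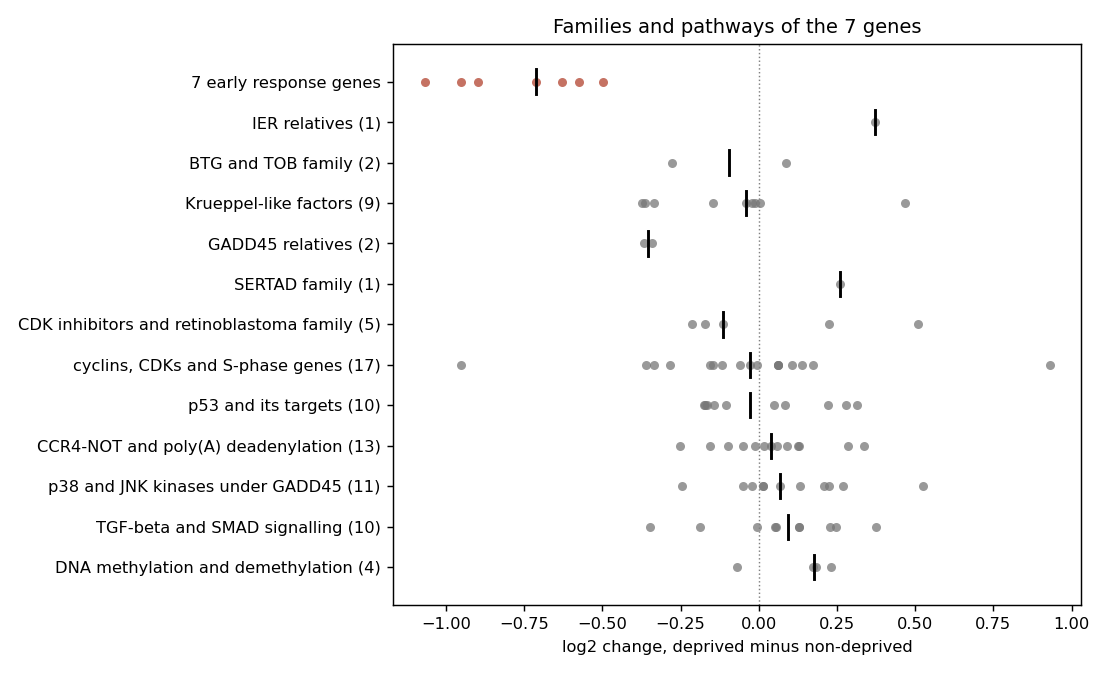
Log2 change, deprived minus non-deprived, of the 7 early response genes (top) and of the tested genes of 12 related lists (number tested in brackets), with the median of each as a bar. The 7 genes were chosen from this comparison and lie between -1.07 and -0.50, while the list medians lie between -0.35 and 0.37 and none of the 85 list genes passed the threshold.

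Across the series, median signal per array ranged from 202.8 to 219.7, and log2 signals of array pairs correlated at 0.953 to 0.964 within and 0.950 to 0.962 between groups. Non-deprived replicate 3 stood apart on the 3′ probe set of 18S ribosomal RNA, at 2688.7 against 661.0 to 980.9 elsewhere. Without that array the log2 changes were -1.16 for Ier2, -0.89 for Btg2, -0.46 for Klf10, -0.58 for Midn, -0.64 for Gadd45b, -0.71 for Sertad1 and -0.83 for Cdkn1a. The 9 tested markers of neurons had a summed signal of 48707 to 53239 in deprived and 50454 to 51539 in non-deprived arrays. No signal in the table was 0, and none of the marker genes of the 8 lists passed the threshold.

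Summed markers of other cells overlapped between deprived and non-deprived arrays for astrocytes (7 tested of 9 listed, 13693 to 15208 and 15036 to 16143), oligodendrocytes (7 of 10, 12522 to 14074 and 12398 to 13462), microglia (8 of 11, 6722 to 7441 and 6447 to 7257), endothelium and vessel wall (5 of 11, 982 to 1356 and 1183 to 1272) and red blood cells (3 of 5, 4232 to 5806 and 4650 to 6190). They also overlapped for thalamus (5 of 7, 2837 to 3277 and 3055 to 3856) and hippocampus (2 of 8, 1397 to 2054 and 973 to 1454), whose 2 tested genes both had a higher mean in deprived arrays. Bright probe sets weigh most in such sums, so an overlap does not show that each marker was unchanged. Aldoc of astrocytes had a log2 change of -0.25 (SE 0.10) and Wfs1 of hippocampus 0.41 (SE 0.17). All deprived arrays read below all non-deprived arrays for Nefl and Cd68 (as for 4.59% of all probe sets). They read above them for Sox10, Ctss and Cldn5 (as for 5.5%). The part of these cells and regions in the signals of the 7 genes was not tested.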

How the data were processed

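The deposited file holds 12488 probe sets for each of 6 arrays, and its values are linear intensity, namely MAS5 signals, with MAS5 named in the submitters' processing notes. Its version, scaling target and background settings are not given in the sources used here, and detection calls were not used here. The deposited intensity columns shared a 2% trimmed mean of 500.3, so any change in total mRNA is hidden. Arrays were scaled to that level, 66 control probe sets were set aside, and the brightest 60% of probe sets by mean signal (at least 134.7; 7453 probe sets) were tested on log2(signal + 16) with limma 3.58.1 in R 4.3.3 (lmFit and eBayes with an intensity trend, group as the only term, two-sided, Benjamini-Hochberg adjustment over all tested, threshold 0.05). The fit was tested on simulated data.

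Symbols came from the platform annotation, checked through the gene ID against RefSeq (GRCm38.p6): 10855 probe sets had 1 symbol, 396 several and 1237 none here. The brightest probe set stood for a gene. The members and lists were chosen with earlier results of these data known. Besides the 7 genes, the genes named were those past the threshold and the 2 largest changes of each related or early response list (marker lists are given as sums), and the nearest profiles (5 to the median profile, 1 to each gene). Klf9, the genes between Midn and Gadd45b and the promoter motifs were looked at after the values were seen. With 3 arrays per group, their number limits the precision.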

Additional observations from a re-analysis of the deposited data

How the results depend on the processing

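All 7 genes kept a lower mean in deprived arrays under every alternative run for them: quantile normalization, the signals as deposited, a pseudocount of 1 or 64, testing without a filter, the top 40% of signal (where Gadd45b, Sertad1 and Cdkn1a were not tested), the replicate number as a block, no intensity trend, leaving out each array, and averaging over a gene's probe sets. The median log2 change over the genes ranged from -0.86 to -0.59. Of the 14 alternative fits, Ier2 passed in 5 (adjusted p from 0.018 to 0.181 over the 14). The number of the 7 genes past the threshold was 0 with no filter, with the replicate block, without the intensity trend and in all 6 fits without an array; without an array, fewer samples were fitted, and otherwise the cause was not tested. Over the whole table, 12 probe sets were lower and 1 higher. Leaving out an array gave 7 to 9 lower and 0 to 1 higher, no filter gave 9 and 0, no intensity trend 8 and 2, and the replicate block 9 and 1. Same-numbered arrays of the groups had deviations correlated at 0.00, 0.05 and -0.02, and not every array correlated best with its own number, so the numbers were not taken to pair the arrays. None of the tested genes of the 12 related lists passed in any of the 14 fits; the marker lists were examined in the main setting only.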
